A study of Caenorhabditis elegans with 2 samples.

Results

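The let-7 family of Caenorhabditis elegans comprises the microRNA genes let-7, mir-48, mir-84, mir-241, mir-793, mir-794 and mir-795, which are 7 of the 261 microRNA genes annotated in the WBcel235 assembly. Around them, regions were taken from the deposited ChIP-seq lists for the nuclear hormone receptor DAF-12, which hold background as well as peaks. A region was taken when its summit, the position of highest signal in it, lay within 10 kb of either end of the gene. ChIP-seq recovers the DNA fragments attached to a protein with an antibody and sequences them. The authors kept 150 regions by their irreproducible discovery rate (IDR), which scores how far the ranks of 2 replicates repeat, and 3 of these IDR peaks met the rule. Of the 30000 regions of the relaxed list made from both replicates pooled, 43 did. The relaxed lists of replicate 1 and replicate 2, also of 30000 regions each, gave 49 and 40. The 3 IDR peaks were among the 43 pooled regions.

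Family members are made as hairpin precursors and share the bases near the 5′ end, the seed, through which a microRNA pairs with its target messenger RNAs. In the larva, mir-48, mir-84 and mir-241 act together in an early timing decision, in which they lower the transcription factor HBL-1. let-7 acts later, at the change from larva to adult, where it lowers LIN-41. The hormone of DAF-12 is dafachronic acid, a steroid, and the receptor is known to activate mir-84 and mir-241 when the hormone is bound and to repress them without it.

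All samples were labelled as whole larvae of the L3 stage, males and females pooled, of strain OP222. Its genotype is unc-119(ed3) III with the integrated transgene wgIs222, which supplies DAF-12 fused to eGFP in addition to the animal's own gene. The labels name daf-12 as the antibody and describe the assay as ChIP-seq against eGFP-daf-12, the tagged protein. They number both samples as biological replicates, so there was 1 group of 2 samples. No other genotype, hormone condition or control sample was analysed here, so no condition can be compared. Signal is the authors' own value for each region, on a scale that is not stated. Read counts were not in the lists, so sequencing depth is unknown and the counting error of the signals could not be computed. Region lists hold no RNA levels, so stage and tissue were taken from the labels. Ranks run from the highest signal down. The IDR list ran from a signal of 177.5 to 33.5 with a median of 43.0, and the median of the pooled relaxed list was 11.98. The relaxed lists hold background as well as peaks. They averaged 5.98 regions per 20 kb of genome and covered 10.3% of it in the pooled list, so a region of low rank near a gene is common.

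The mature sequences define the family and are shown for the members outside the pair mir-794 and mir-795. They were read from the assembly at the annotated mature positions, 5′ to 3′, with bases 2 to 8, the seed, in capitals.
let-7: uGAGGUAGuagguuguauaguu
mir-48: uGAGGUAGgcucaguagaugcga
mir-84: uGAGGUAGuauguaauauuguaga
mir-241: uGAGGUAGgugcgagaaauga
mir-793: uGAGGUAUcuuaguuagacaga
The seed GAGGUAG was shared by 5 members, namely let-7, mir-48, mir-84, mir-241 and mir-795. In mir-793 the seed was GAGGUAU and in mir-794 it was GAGGUAA. Past the seed the sequences diverged, and the mature RNAs ran from 21 bases in mir-241 to 24 in mir-84 and mir-795. Of the members with the shared seed, mir-48, mir-84 and mir-241 had an IDR peak within 10 kb, and let-7 and mir-795 had none.

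The DNA under the summits is shown for the peaks nearest mir-241 and mir-84 and for weaker regions at mir-84 and let-7. Windows of 201 bases centred on the summit are given on the minus strand, the strand of mir-48, mir-241, mir-84 and let-7, in ce11 coordinates. Capitals mark matches on either strand to receptor hexamers and to the motif GAGAG. The receptor hexamers searched were AGTGCA along with AGTGTG, the related AGTGCG, the variant AGTACA, then AGTTCA, and with a second G also AGGTCA, followed by AGGACA. Read from the opposite strand, AGTACA appears as TGTACT, the hexamer AGTGCA appears as TGCACT, and the motif GAGAG appears as CTCTC. The first 2 windows are IDR peaks, the next is the pooled region nearest mir-84, and the last is the pooled region over the let-7 hairpin.
IDR peak 462 bp upstream of mir-241 (chrV:14366645-14366845): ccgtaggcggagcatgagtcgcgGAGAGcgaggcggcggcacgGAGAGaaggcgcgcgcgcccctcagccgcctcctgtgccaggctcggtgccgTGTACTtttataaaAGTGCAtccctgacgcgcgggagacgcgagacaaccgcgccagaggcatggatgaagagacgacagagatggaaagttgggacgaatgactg
IDR peak 2363 bp upstream of mir-84 (chrX:16024741-16024941): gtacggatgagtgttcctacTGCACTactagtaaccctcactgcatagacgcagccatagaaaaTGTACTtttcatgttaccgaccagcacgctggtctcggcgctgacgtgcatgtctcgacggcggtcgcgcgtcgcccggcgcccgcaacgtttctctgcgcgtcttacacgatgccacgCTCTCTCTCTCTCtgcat
pooled region 524 bp upstream of mir-84 (chrX:16022902-16023102): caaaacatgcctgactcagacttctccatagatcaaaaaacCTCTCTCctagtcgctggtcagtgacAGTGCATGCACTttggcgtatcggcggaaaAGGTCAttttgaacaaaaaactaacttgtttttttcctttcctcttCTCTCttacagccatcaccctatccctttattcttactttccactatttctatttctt
pooled region over the let-7 hairpin (chrX:14744119-14744319): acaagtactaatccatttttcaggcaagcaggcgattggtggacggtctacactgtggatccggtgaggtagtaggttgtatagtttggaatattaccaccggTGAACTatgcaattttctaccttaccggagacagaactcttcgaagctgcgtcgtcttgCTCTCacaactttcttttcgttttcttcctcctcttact
Both IDR windows hold AGTACA, read here as its reverse complement, and the one upstream of mir-241 holds it within a pair of hexamers that point away from each other.

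The genes lay at 5 loci. The genes mir-48 (WBGene00003039, V:14364412-14364509) and mir-241 (WBGene00003335, V:14366188-14366283) lay 1678 bp apart on the minus strand of chromosome V and shared most of their regions. The genes mir-84 (WBGene00003312, X:16022404-16022478) and let-7 (WBGene00002285, X:14743590-14745321), also on the minus strand, and mir-793 (WBGene00045327, X:13857962-13858053), on the plus strand, lay apart from each other on X. The annotated let-7 gene spans 1732 bp because it holds 3 primary transcripts, and its hairpin is at X:14744173-14744271. The other loci are annotated as the hairpin alone. The pair mir-794 (WBGene00045328) and mir-795 (WBGene00045329) lay 1032 bp apart on another chromosome, both on the plus strand, and shared all their pooled regions.

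An IDR peak lay within 10 kb of 3 of the 7 genes, mir-48, mir-84 and mir-241, which are 2 of the 5 loci. The same held for 7.28% of all 261 microRNA genes, 3.13% of 19985 protein-coding genes and 3.19% of both together. Because mir-48 and mir-241 share their peaks, the 3 genes are not independent of each other. Within 5 kb the count was again 3 of 7, against 4.21% of microRNA genes. Within 2 kb it was 1 of 7, mir-241, against 1.53%. Taken from one replicate at a time, with the 150 highest regions of that replicate in place of the IDR list, the count was 3 of 7 in replicate 1 against 8.05% of microRNA genes, and 3 of 7 in replicate 2 against 6.51%. All 3 IDR peaks lay upstream of the microRNA gene, none in it or downstream. These genes are annotated as the hairpin alone, so upstream is counted from the hairpin. The share of upstream peaks over all microRNA genes was not computed. The members were chosen with earlier results of these data known, so these counts are a description and were not tested.

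**Figure D1:**
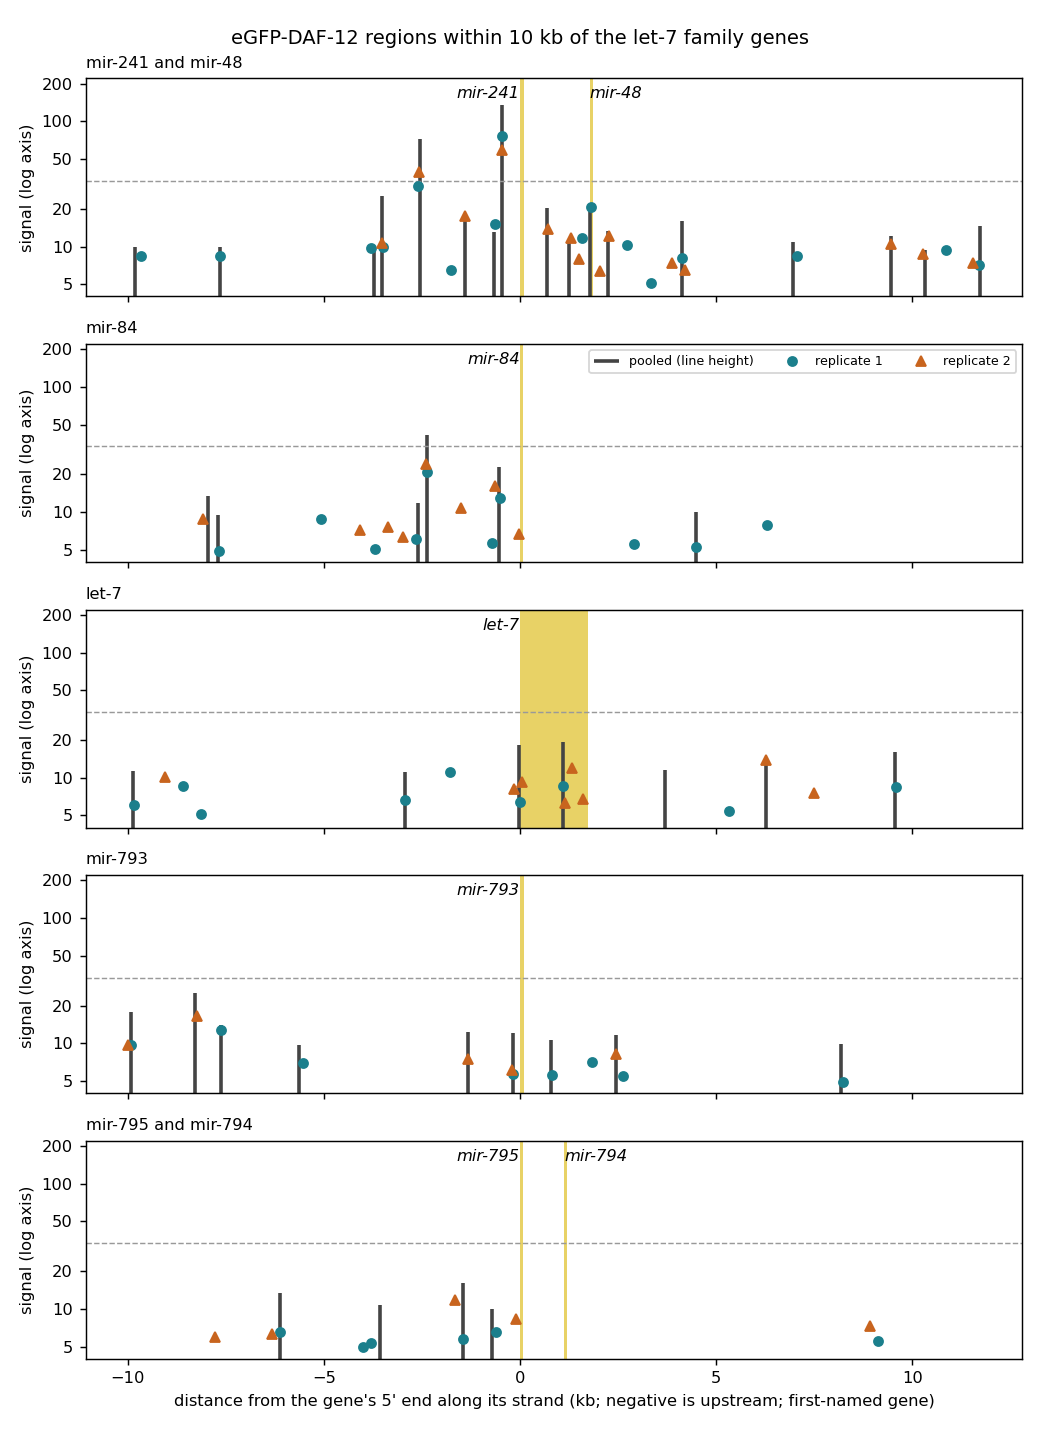
Signal (log axis) of every region within 10 kb of a let-7 family gene against its distance in kb from the 5′ end of the first-named gene of each panel along that gene's strand; dark lines are pooled regions, circles replicate 1, triangles replicate 2, yellow bands the genes, and the dashed line is the lowest signal of the IDR list, 33.5. The 3 pooled regions above the dashed line are all upstream, 2 at mir-241 and mir-48 and 1 at mir-84.

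The locus of mir-241 and mir-48 held the strongest region of the family. Its summit was at V:14366745, 462 bp upstream of mir-241 and 2236 bp upstream of mir-48, and lay in an exon of F56A12.8, a non-coding RNA gene on the plus strand. In replicate 1 the signal was 76.8 at rank 3 and in replicate 2 it was 59.3 at rank 4, with a pooled signal of 135.7. The replicate summits, V:14366730 and V:14366746 lay on either side of the pooled one. The region was 153 bp wide, whereas every other pooled region near the family was 344 bp wide, the median of the IDR list. It was 95 bp wide in replicate 1 and 330 bp in replicate 2, against list medians of 360 and 330 bp. Its nearest protein-coding start was that of unc-39, a homeobox gene, at 6329 bp.

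A second IDR peak, of rank 27, lay further upstream at V:14368842, 2559 bp from mir-241 and 4333 bp from mir-48, between annotated genes and 4232 bp from the start of unc-39. The signal was 30.6 at rank 41 in replicate 1 and 39.3 at rank 21 in replicate 2, with a pooled signal of 71.7. In each replicate the nearer peak had the higher signal of the 2. The log2 ratio of replicate 1 over replicate 2 was 0.37 at the nearer and -0.36 at the farther peak. Over the 142 IDR peaks that each replicate also listed, the ratio had a mean of -0.01 and a standard deviation of 0.68, so neither difference was larger than the usual spread between the replicates.

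Between and around both peaks lay weaker regions, most of them in one replicate only. A region of pooled signal 25.4 at rank 424 lay 3506 bp upstream of mir-241 in an exon of the non-coding RNA gene F56A12.10, with 9.85 in replicate 1 and 10.6 in replicate 2. A region of pooled signal 22.0 at rank 900 had its summit in the mir-48 hairpin itself, V:14364504, with 20.6 at rank 122 in replicate 1 and no region of replicate 2 within 100 bp. Between the genes, 1074 bp upstream of mir-48 and 605 bp downstream of mir-241, a region of pooled signal 20.2 had 13.7 at rank 1254 in replicate 2 and none in replicate 1. The summit in the hairpin was thus carried by replicate 1 alone, and the intergenic one by replicate 2 alone. At V:14367689, 1406 bp upstream of mir-241, replicate 2 had a signal of 17.6 at rank 288 and replicate 1 had no region within 100 bp. A pooled region 662 bp upstream of mir-241 lay beside the peak of rank 3, which is 462 bp upstream and in both replicates. That pooled region had 15.0 at rank 418 in replicate 1 and no summit of replicate 2 within 100 bp. Within 2 kb of mir-48 the highest pooled rank was 900, since both IDR peaks lie farther from it.

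The locus was dense in regions. Within 10 kb of mir-48 lay 16 pooled regions, of which 9 were upstream, 1 in the gene and 6 downstream, and within 10 kb of mir-241 lay 15. The lists of replicate 1 and replicate 2 gave 15 and 14 at mir-48 and 14 and 12 at mir-241. The median over all microRNA genes was 6 in each of the lists. No microRNA gene had more pooled regions than mir-48, which shared its count with 1 other, and 2 had more than mir-241. Over all microRNA genes the quartiles of the pooled number were 5 and 8. With 7 at let-7 and 6 at mir-84 these genes lay between the pooled quartiles. mir-793 with 9 lay above the upper one, and mir-794 and mir-795 with 4 lay below the lower one. The single replicates did not keep these places. In replicate 1, with quartiles of 5 and 8, let-7 had 9, mir-84 had 10, mir-793 had 8 and mir-794 and mir-795 had 6. In replicate 2, with quartiles of 4 and 8, the numbers in that order were 8, 8, 5 and 5.

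**Figure D2:**
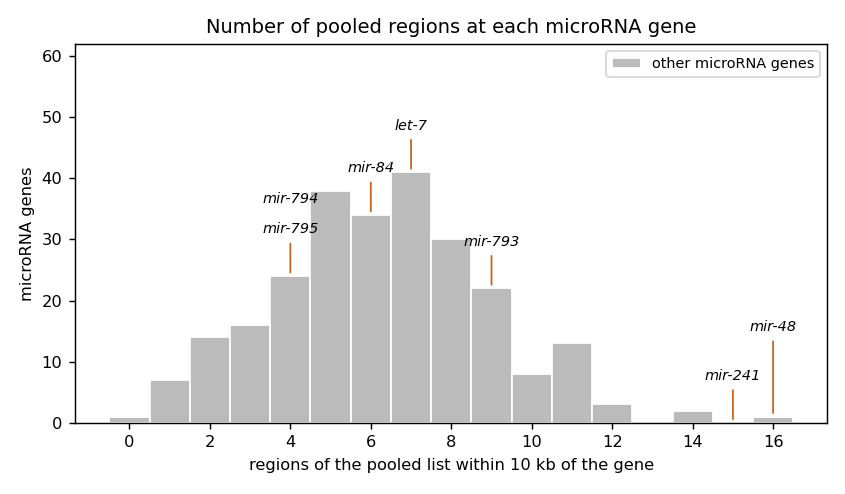
Number of microRNA genes (vertical axis) by the number of pooled regions with a summit within 10 kb (horizontal axis); grey bars are the 254 microRNA genes outside the let-7 family, and the labelled lines mark the 7 members. The neighbours mir-48 with 16 and mir-241 with 15 stand at the right end, and the other members lie between 4 and 9.

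At mir-84, the IDR peak of rank 81 had its summit at X:16024841, 2363 bp upstream of the gene, between annotated genes and 5965 bp from the start of mboa-1, the nearest coding start. The signal was 20.7 at rank 119 in replicate 1 and 24.2 at rank 71 in replicate 2, with a pooled signal of 41.1, just below the median of the IDR list. The log2 ratio between replicates was -0.22, again within the spread over IDR peaks. A region nearer the gene, 524 bp upstream at X:16023002, had a pooled signal of 23.1 at rank 682, below the IDR list. Replicate 1 had its summit 500 bp upstream with 12.98 at rank 927 and replicate 2 had its summit 637 bp upstream with 16.1 at rank 493. The summit of replicate 2 lay more than 100 bp from the pooled one, so the pooled region counts as present in replicate 1 only. Within 100 bp of that replicate 2 summit, replicate 1 had a weak region 718 bp upstream, with 5.69 at rank 21634. Downstream, the single pooled region lay in an intron of nhx-1, a sodium/proton exchanger gene, with a signal of 10.1.

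**Figure D3:**
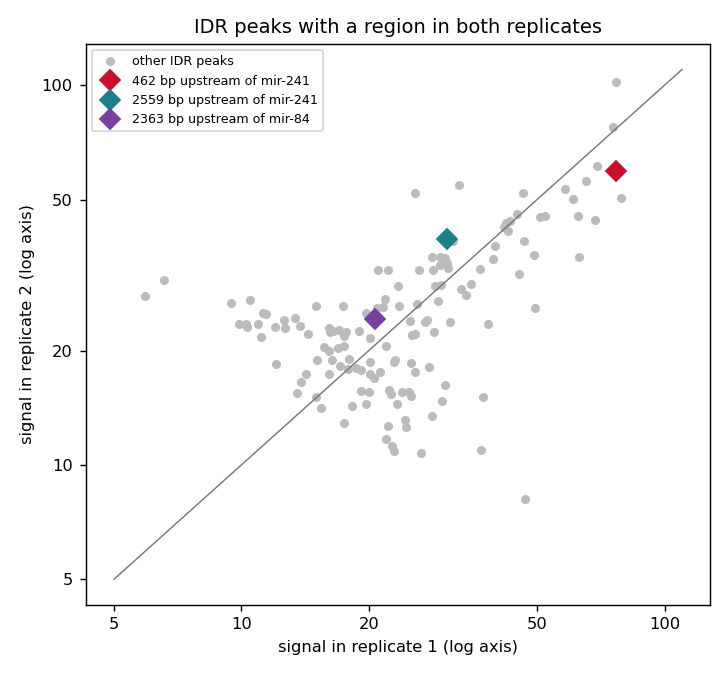
Signal in replicate 2 against signal in replicate 1 (both log axes) for the 142 IDR peaks that each replicate also listed; grey points are peaks away from the let-7 family, diamonds are the 3 peaks near it and the line marks equal signal. The diamonds lie close to the line, at 76.8 and 59.3, 30.6 and 39.3, and 20.7 and 24.2.

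The other IDR peaks with the most similar signals in both replicates were searched among the 101 with a coding or microRNA start within 2 kb. For the peak nearest mir-241 these were the peaks 286 bp from rpl-3, 730 bp from nspc-17 and 150 bp from cdc-48.1, of ranks 4, 5 and 6. rpl-3 encodes a ribosomal protein and cdc-48.1 an ATPase that extracts proteins from complexes. For the farther peak they were those of rpl-15, a ribosomal protein gene, cox-5A, for a subunit of cytochrome c oxidase, and hsp-1, for a heat shock protein, of ranks 29, 31 and 44. For the mir-84 peak they were those of sri-5, mfb-1 and C33A12.3, of ranks 67, 60 and 72. The distance on the log2 scale over both replicates ran from 0.02 for sri-5 to 0.25 for cdc-48.1.

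let-7, the founding member, had no IDR peak. In the pooled list 7 regions lay within 10 kb, and the highest, of rank 1812 with a signal of 19.4, had its summit in the let-7 hairpin at X:14744219. Within 100 bp of this summit replicate 1 had 8.60 at rank 6546 and replicate 2 had 6.29 at rank 25754. Neither replicate alone thus ranked a summit within that distance high. The next, of rank 2555 with a signal of 18.2, lay 29 bp upstream of the annotated 5′ end of the gene, which is 1079 bp upstream of the hairpin, with 6.45 at rank 16163 and 9.24 at rank 8815. These were the 2 of the 7 pooled regions at let-7 that had a region in each replicate.

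The highest regions of the single replicates at let-7 were at other places. In replicate 1 it was at X:14747096 with 11.1 at rank 2030, 1775 bp upstream and 207 bp from the start of wshc-2. In replicate 2 it was at X:14739056 with 13.8 at rank 1235, 4534 bp downstream in an intron of C05G5.1. Replicate 2 also had a region of 12.01 at rank 2741 within the primary transcript, 186 bp downstream of the hairpin. Its summit lay more than 100 bp from the pooled summit in the hairpin, so the 2 were not matched. The best ranks of the replicates at let-7 therefore do not stand for one repeated site.

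mir-793 had no IDR peak either. Its highest pooled region, at X:13849678 with a signal of 25.1 at rank 458, lay 8284 bp upstream, between annotated genes and 3228 bp from the start of mct-3. Replicate 2 had 16.5 at rank 418 there and replicate 1 had no region within 100 bp. The highest region of replicate 1 lay 7624 bp upstream with 12.8 at rank 994. Closest to the hairpin, 172 bp upstream, was a region of pooled signal 12.2 at rank 14149, with 5.66 in replicate 1 and 6.08 in replicate 2. The region next to the gene was thus found in both replicates with signals below the medians of their lists, 6.62 and 7.84.

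mir-794 and mir-795 had the weakest surroundings in the family. Their highest pooled region had a signal of 16.0 at rank 4937 and lay 1452 bp upstream of mir-795 and 2573 bp upstream of mir-794, 766 bp from the start of F33E2.5. Replicate 1 had 5.73 at rank 21331 there and replicate 2 had no region within 100 bp. The highest region of replicate 1 had 6.56 at rank 15409 in the coding sequence of F33E2.6, and that of replicate 2 had 11.8 at rank 2981, 1665 bp upstream of mir-795. None of the 4 pooled regions had a summit of each replicate within 100 bp. The highest region of replicate 2 lay near the highest pooled one but farther than 100 bp from its summit, so the 2 were not matched.

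Ordered by the highest rank within 10 kb, the loci came in the same order in both replicates. mir-241 and mir-48 had ranks 3 and 4 in replicate 1 and replicate 2, mir-84 had 119 and 71, mir-793 had 994 and 418, let-7 had 2030 and 1235, and mir-794 and mir-795 had 15409 and 2981. The values of neighbouring loci in this order did not overlap, with 2 replicates each. At mir-793, at let-7 and at the pair mir-794 and mir-795, however, the 2 replicates had their best regions at different sites. The median of the highest pooled rank was 2512 over all microRNA genes, 3359 over protein-coding genes and 458 over the 7 members. Of the 260 other microRNA genes, none had a higher rank than mir-241 and mir-48, 13 had a higher one than mir-84, 54 than mir-793, 98 than let-7 and 179 than mir-794 and mir-795. Outside the family, 16 of 254 microRNA genes had an IDR peak within 10 kb, led by mir-356.1 and mir-356.2 at rank 13 and by mir-249, mir-359 and mir-785 at rank 16.

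**Figure D4:**
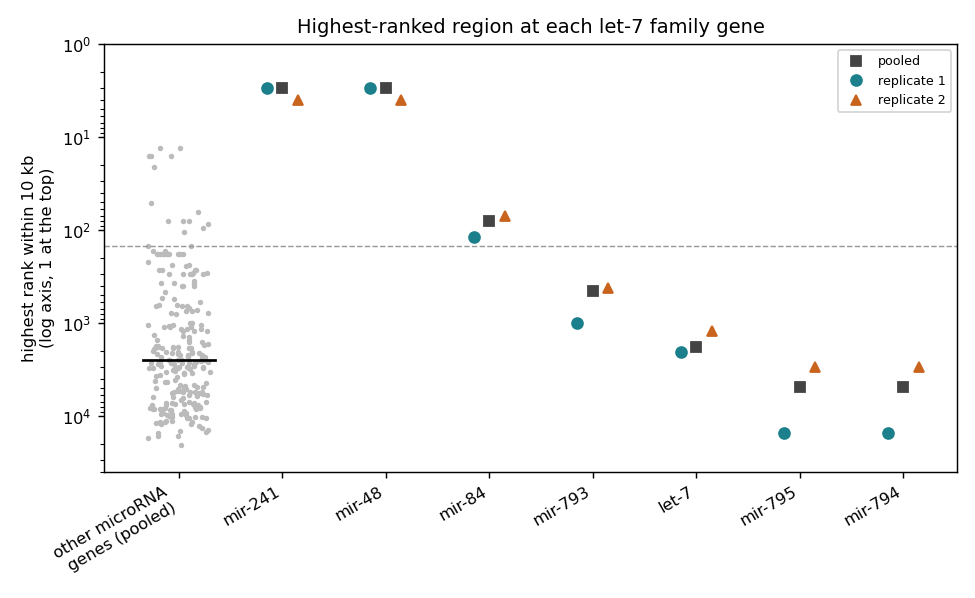
Highest rank within 10 kb (log axis, 1 at the top) for each let-7 family gene in the pooled list (squares), replicate 1 (circles) and replicate 2 (triangles); grey points are the pooled values of the other microRNA genes, the black bar their median, and the dashed line rank 150. mir-241 and mir-48 at ranks 3 and 4 stand above the other microRNA genes, mir-84 at 81, 119 and 71 lies above the dashed line, and the other members lie below it.

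Most relaxed regions near the family were found in at most 1 replicate, as were most regions of the whole pooled list. Of the 43 pooled regions, 9 (20.9%) had a summit within 100 bp in each replicate, 19 (44.2%) in replicate 1 only, 10 (23.3%) in replicate 2 only and 5 (11.6%) in neither. Over all 30000 pooled regions the shares were 13.9%, 27.9%, 36.9% and 21.3%. The 9 near the family included the 3 IDR peaks. Of the 150 IDR peaks, 142 (94.7%) had a region in both. The median signal of the 43 regions was 13.02, against 11.98 over the whole list. No test was made of these shares, since the regions of one locus share their neighbourhood.

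The hexamers are core elements to which nuclear receptors bind, and matches to them were counted within 50 bp of the summit on either strand. AGTACA was present in both IDR windows shown, nearest mir-241 and at mir-84, in 10.7% of all IDR windows and in 4.2% of all pooled windows. AGTGCA was present in the window nearest mir-241, and in 12.7% of IDR and 3.66% of pooled windows. At least 1 of the 7 receptor hexamers was thus present in each of the 2, in 38.7% of all IDR windows (58 of 150) and in 21.8% of pooled windows. Neither held any of the other 5 receptor hexamers. The motif GAGAG, present in 46.7% of IDR windows and 13.2% of pooled windows, was in neither within 50 bp. Within 100 bp it occurred 2 times at the peak nearest mir-241 and 5 times, in overlapping copies of a CT repeat, at the mir-84 peak. Both windows were rich in G and C, at 67.3% nearest mir-241 and 63.4% at mir-84. The means were 46.8% over IDR windows and 34.0% over pooled windows.

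At the peak nearest mir-241 the hexamers formed a pair facing away from each other, a layout noticed only once the windows had been read. The pair was TGTACTtttataaaAGTGCA, with 8 bases between, from position -5 to 14 along the minus strand with the summit at 0. Pairs of this kind, with AGTACA or AGTGCA on each side and up to 10 bases between, were then searched within 50 bp of the summits. They were present at 3 of 150 IDR summits (2%) and at 9 of 30000 pooled summits (0.03%). Both counts include the peak nearest mir-241, where the layout was noticed, so they are not independent of it. Among the 3 was the IDR peak of rank 68, 634 bp from the start of C33D9.3. Within 50 bp of its pooled summit, the mir-84 peak had a single AGTACA, at -36 to -31 on the opposite strand. An AGTGCA lay farther out, at -80 to -75, and both hexamers lay within 50 bp of the replicate 2 summit. The weaker region 524 bp upstream of mir-84 had AGTGCA on both strands, abutting as AGTGCATGCACT and so facing each other, and AGGTCA across its summit. The let-7 hairpin region had 1 AGTTCA, at 3 to 8 on the opposite strand, the mir-48 hairpin region had no receptor hexamer, and the best regions of mir-793 had none. A match describes letters in a window and does not show that the receptor sat on it.

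Among a fixed list of 23 other genes, chiefly of developmental timing and the microRNA machinery, 5 had an IDR peak within 10 kb. The share over coding and microRNA genes was the 3.19% given above. The listed genes are longer, with a median of 6297 bp against 92 bp for the family and 1998 bp for all. A longer gene has a wider window. nhl-2, a cofactor of microRNA silencing, had a peak of rank 15 with a signal of 89.4, 808 bp upstream. Its summit lay in an exon of the non-coding RNA gene F26F4.14, and the nearest coding or microRNA start was that of tag-340, at 615 bp. lin-14, an early timing regulator, had 3 peaks, the highest of rank 32 with 64.8, in an intron. lin-42, related to Period, had one of rank 37 with 62.2 in an intron. daf-12, of which the strain carries an added tagged copy, had 2, the highest of rank 40 with 60.4 in an intron. lin-41, the let-7 target, had one of rank 107 with 37.9, 1498 bp upstream. The other 18 had none, among them hbl-1, the target of mir-48, mir-84 and mir-241, whose highest pooled rank was 449, lin-28, an RNA-binding protein that blocks let-7 processing, at 2026, and the microRNA lin-4 at 8411. In replicate 1 and replicate 2 the peak of nhl-2 ranked 21 and 12, the highest peak of lin-14 ranked 33 and 42, that of lin-42 ranked 35 and 46, and that of daf-12 ranked 45 and 43. The lin-41 peak repeated less well, with 22.9 at rank 85 in replicate 1 and 10.9 at rank 4483 in replicate 2. The best region of replicate 2 within 10 kb of lin-41, of rank 161, was another one. All of these thus ranked below the peak nearest mir-241, and all but nhl-2 below the farther one in the pooled list.

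**Figure D5:**
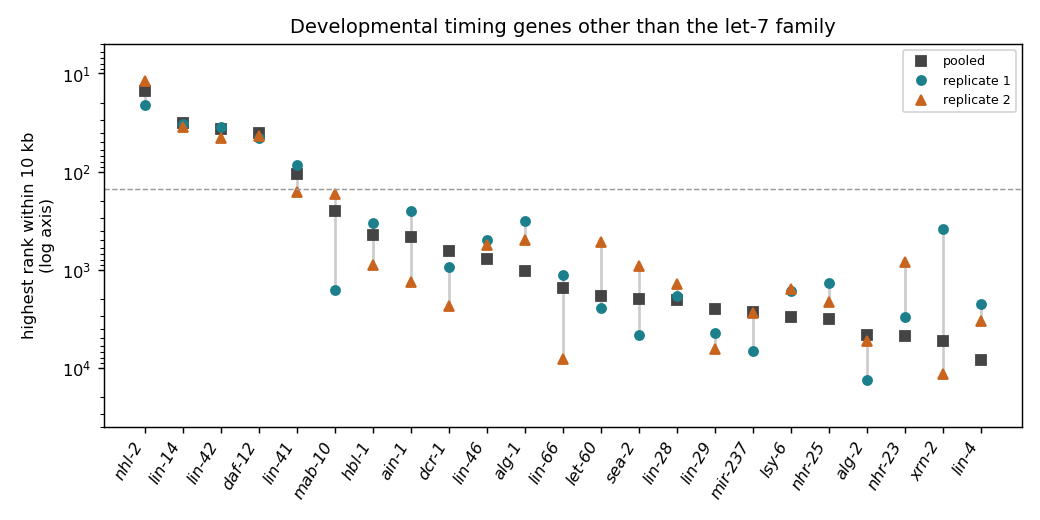
Highest rank within 10 kb (log axis, high ranks at the top) of the 23 listed genes, chiefly of developmental timing and the microRNA machinery. Squares are the pooled list, circles replicate 1 and triangles replicate 2. Grey lines join the replicates and the dashed line marks rank 150. From nhl-2 at pooled rank 15 to lin-41 at 107 the 5 genes with an IDR peak stand at the left, and hbl-1 at 449 lies below the line.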

How the data were processed

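Chromatin immunoprecipitation was measured in 2 samples of 1 group, labelled biological replicates 1 and 2. The authors called regions against a control alignment, separately in each replicate and after pooling, per the notes deposited with the lists. What aligner, peak caller and IDR threshold they used is not given in the sources used here. Each region's signal was deposited by the authors as 1 number on an unstated scale, and it was used to rank regions (ties took the lowest rank number) and as log2 values between replicates. With no read counts the depth is unknown.

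The lists in ce11 were joined to the WBcel235 sequence with gene models of Ensembl release 115 and symbols from RefSeq, and the ce10 lists were not used. The sequence under 1 IDR peak is not reported here. Summits within 10 kb of either gene end were taken, and regions of different lists were matched where summits lay within 100 bp. Named were all members, the genes at or nearest to their best regions, every pathway gene with an IDR summit within 10 kb, and for each IDR peak near a member the 3 other peaks of nearest log2 signals. Other microRNA genes, F56A12.10, nhx-1, C33D9.3, tag-340, F26F4.14, hbl-1, lin-28 and lin-4 were named outside this rule, after their values were seen. Members and gene lists were chosen with earlier results of these data known, so no test was made. The labels call the replicates biological and do not describe the cultures, so the spread between them may be partly technical.

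Alternatives were windows of 2 and 5 kb, the 5′ end alone, the 75 highest IDR peaks, each replicate alone, overlap in place of the summit, and motif windows of 100 bp. Distance to the hairpin and the search for hexamer pairs were added after seeing the data. Scripts in Python 3.11.15 with pandas 2.3.3 and numpy 2.4.6 were tested on simulated data.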

Additional observations from a re-analysis of the deposited data

How the results depend on the processing

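The count of let-7 family genes with an IDR summit within 10 kb, 3 of 7, was again 3 with a window of 5 kb, with the 5′ end alone, with overlap in place of the summit and with distance to the hairpin, an alternative chosen after seeing the data. It was 2 with the 75 highest IDR peaks, which leave out the mir-84 peak by construction, and 1 with a window of 2 kb, which holds mir-241 alone. With each replicate left out in turn it ranged from 3 to 3. For the 23 listed genes outside the family, the count of 5 ranged from 4 to 5 with a replicate left out. It was 4 with the 5′ end alone and with the 75 highest peaks, and was 5 otherwise. The IDR windows nearest mir-241 and at mir-84 held a receptor hexamer within 50 bp and within 100 bp. The best rank of single genes changed more. Without replicate 2 it stayed at 3 for mir-48 and mir-241, and was 119 at mir-84 and 994 at mir-793. At let-7 it was then 2030, and at mir-794 and mir-795 it was 15409. Without replicate 1 it was 4 at mir-48 and mir-241, 71 at mir-84 and 418 at mir-793. At let-7 it was then 1235, and at mir-794 and mir-795 it was 2981. With a window of 2 kb the best rank changed for 4 of the 7 genes. At mir-48 it went from 3 to 900, at mir-84 from 81 to 682, at mir-793 from 458 to 13873 and at mir-794 from 4937 to 24873 in the window of 2 kb. The number of regions per gene moved for all 7 genes with that window. The cause of differences between replicates was not tested. Depth is unknown, so how far it limits the weaker regions could not be computed. No paired analysis was possible because there is 1 group and no result comes from a test.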
